A study of Mus musculus with 20 samples.

Results

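N6-methyladenosine (m6A) peaks were compared between undifferentiated and type A1 spermatogonia of the mouse, at the sites where both stages had a peak. A pair of peaks was taken wherever a peak of the undifferentiated table and a peak of the type A1 table lay on the same RefSeq transcript and shared at least 1 nt. This gave 14053 pairs on 6356 genes, made of 13010 of the 23031 undifferentiated peaks and 12250 of the 16392 type A1 peaks. The 5 peak tables of the whole series hold 84778 peaks. Among the 9654 genes listed in either table, 6751 were listed in both, 2337 only in the undifferentiated table and 566 only in the type A1 table, and 395 genes of both tables had no overlapping peaks. Pairs were matched on position, among peaks that the authors had called in both stages, so undifferentiated peaks with no listed type A1 peak are not among them. In 11785 pairs (83.9%) neither peak had another partner, and the others share a peak with a neighbouring pair.

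The study followed m6A through 5 stages of mouse male germ cells, and 8 of its 20 libraries enter here. Undifferentiated spermatogonia and type A1 spermatogonia were both from C57BL/6 mice, and no genotype, age, treatment or sort is given in the labels. Each stage had 2 input libraries of fragmented poly(A) RNA and 2 immunoprecipitated (IP) libraries made with a polyclonal antibody to m6A. Nothing in the labels ties the replicates to different animals, and the p-values below measure only how far these samples lie apart, which can be technical.

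m6A is added to mRNA in the nucleus by a methyltransferase whose core is Mettl3 and Mettl14, is removed by Alkbh5 and Fto, and is bound by reader proteins such as the Ythdf and Ythdc families. It is known to gather around stop codons and in long exons and to influence splicing, translation and decay of the mRNA. Undifferentiated spermatogonia include the stem cells of the testis, which self-renew under GDNF. Retinoic acid drives their transition to type A1, the first of the differentiating spermatogonia, which depend on the receptor Kit and are committed to meiosis.

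The libraries held 9622068 to 17367467 mapped reads. Mapped reads were 92.8% to 96.6% of the reads in the undifferentiated libraries, against 73.2% and 68.3% in the type A1 inputs and 87.5% and 85.5% in the type A1 IP libraries. The part of this gap in the differences below was not tested. Markers could be checked only as genes with a peak. Of 10 markers of undifferentiated spermatogonia 9 had a peak in the undifferentiated table and 7 in the type A1 table, where Id4 and Lhx1 were missing, and Nanos2 had none in either. Of 8 markers of differentiating spermatogonia 6 and 7 had a peak, in the same order of stages. Spermatid markers had none in either table, 0 of 4. Sertoli cell markers had a peak for 7 of 8 genes in the undifferentiated table, and only Clu in the type A1 table. Markers of Leydig, peritubular and endothelial cells stood at 7 against 0 of 10 and blood markers at 3 against 0 of 5. Of all 9654 genes listed in either table, 9088 had a peak in the undifferentiated table and 7317 in the type A1 table. Peaks on markers of supporting cells therefore moved with the stage, and their part in the results was not tested. In such bulk samples fewer cells of a type, less RNA per cell and lower enrichment of the peaks cannot be told apart.

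Values are deposited log2 enrichments of IP over input, 1 per replicate. Their median over the 14053 pairs was 3.10 and 3.63 in the undifferentiated replicates and 1.86 and 1.85 in the type A1 replicates. As deposited, 13804 pairs (98.2%) had the higher mean in undifferentiated spermatogonia. The median deposited log2 ratio of undifferentiated to type A1 was 1.20 for replicate 1 and 1.77 for replicate 2. Each column was therefore centred on its median, and a difference below is how far a pair stood above or below the other pairs of its own stage. A pair called higher in type A1 ranks higher within type A1, and its deposited enrichment need not be higher there. The spread of enrichments was also wider in undifferentiated spermatogonia, with SDs over pairs of 1.08 and 1.05 against 0.71 and 0.68.

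After centring, the 2 stages differed at many shared sites, in both directions, with larger differences towards the undifferentiated stage. limma with Benjamini-Hochberg adjustment over all pairs called 4246 (30.2%) at an adjusted p under 0.05. Of these, 2399 (17.1%) were higher in undifferentiated spermatogonia, with a median difference of 1.24 on the log2 scale and a largest one of 5.85. The other 1847 (13.1%) were higher in type A1, with a median of -1.07 and the largest at -2.75. The smallest difference that passed was 0.70 in size. Without centring, 11399 pairs were called higher in undifferentiated spermatogonia and 10 in type A1, so every direction towards type A1 here is relative to the stage median. In deposited values, the median pair called higher in undifferentiated spermatogonia went from 4.77 there to 1.87 in type A1, and the median pair called higher in type A1 from 2.64 to 2.31. Pairs called in neither direction had medians of 3.24 and 1.77. The calls rest on few samples: leaving out replicate 1 of type A1 left 888 and 294 calls in the 2 directions, and leaving out replicate 2 left 1247 and 695. Leaving out replicate 1 or 2 of undifferentiated spermatogonia raised the calls higher in type A1 to 2862 and 3282.

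**Figure D1:**
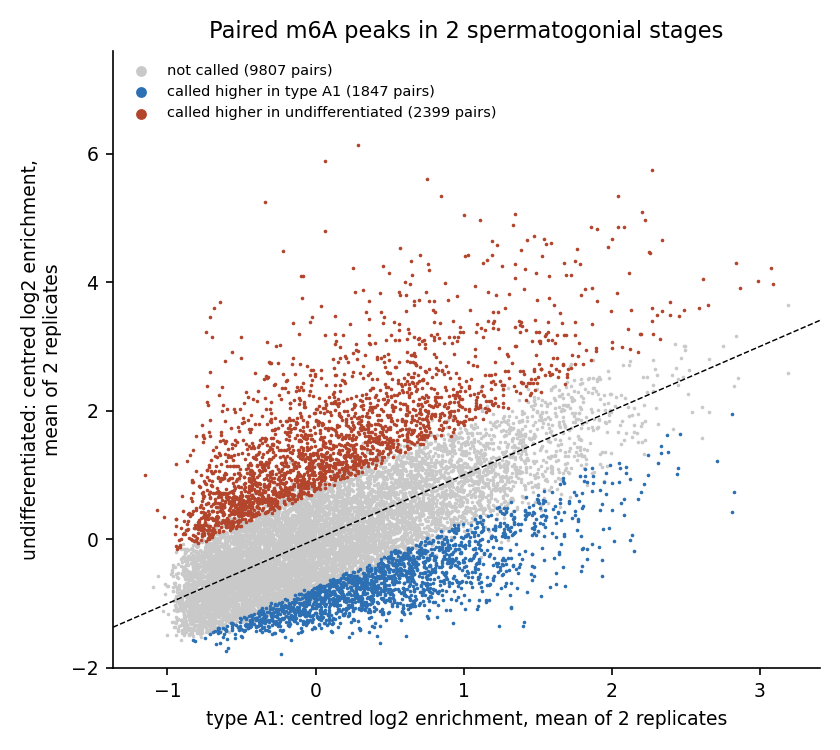
Each point is 1 of 14053 pairs of overlapping peaks, with the mean centred log2 enrichment of the 2 type A1 replicates on the x axis and of the 2 undifferentiated replicates on the y axis, both relative to the stage's median, and the dashed line marks equal values. The 2399 pairs called higher in undifferentiated spermatogonia reach further from the line, up to 5.85, than the 1847 called higher in type A1, down to -2.75.

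Sites near the 5' end of transcripts stood higher in undifferentiated spermatogonia and sites near the 3' end higher in type A1, each relative to its stage. Of 1427 pairs at start codons, 481 (33.7%) were called higher in undifferentiated spermatogonia and 88 (6.17%) in type A1. In 5' untranslated regions (UTRs) the counts were 198 (36.5%) and 51 (9.41%) of 542 pairs. The order turned at the other end. At stop codons 226 (12.7%) and 315 (17.7%) of 1781 pairs were called in the 2 directions, and in 3' UTRs 118 (5.39%) and 516 (23.6%) of 2188. The median difference at stop codons was -0.17, with -0.13 without replicate 1 of type A1 and -0.23 without replicate 2. In 3' UTRs these medians were -0.38, -0.30 and -0.46, and at start codons 0.39, 0.37 and 0.41. Fewer pairs were called at every location in both of these fits. Pairs in coding sequence lay near the background of all pairs, with 1354 (16.9%) and 863 (10.8%) of 7994.

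Each replicate showed this order on its own. The median centred enrichment at start codons was 0.43 and 0.32 in the undifferentiated replicates and -0.13 and -0.08 in the type A1 replicates. In 3' UTRs it was -0.29 and -0.18 in undifferentiated spermatogonia and 0.27 and 0.12 in type A1. Both stages therefore had start codons and 3' UTRs on opposite sides of their median, in opposite order. The start codon median exceeded the 3' UTR median by 0.72 and 0.50 in the undifferentiated replicates, and lay 0.39 and 0.20 below it in the type A1 replicates. The difference between the stages in this gap was 0.77, with 0.58 to 0.98 over the 4 combinations of replicates. An exact two-sided permutation test over the 4 values gave p = 0.333, the smallest that 2 against 2 samples allow. Using the labels of the type A1 table instead gave medians of 0.29 at start codons and -0.38 in 3' UTRs. The peak tables differed the same way in composition: start codons and 5' UTRs held 11.4% and 5.22% of undifferentiated peaks and 10.5% and 4.00% of type A1 peaks, and stop codons and 3' UTRs 9.47% and 13.0% against 14.8% and 19.4%.

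**Figure D2:**
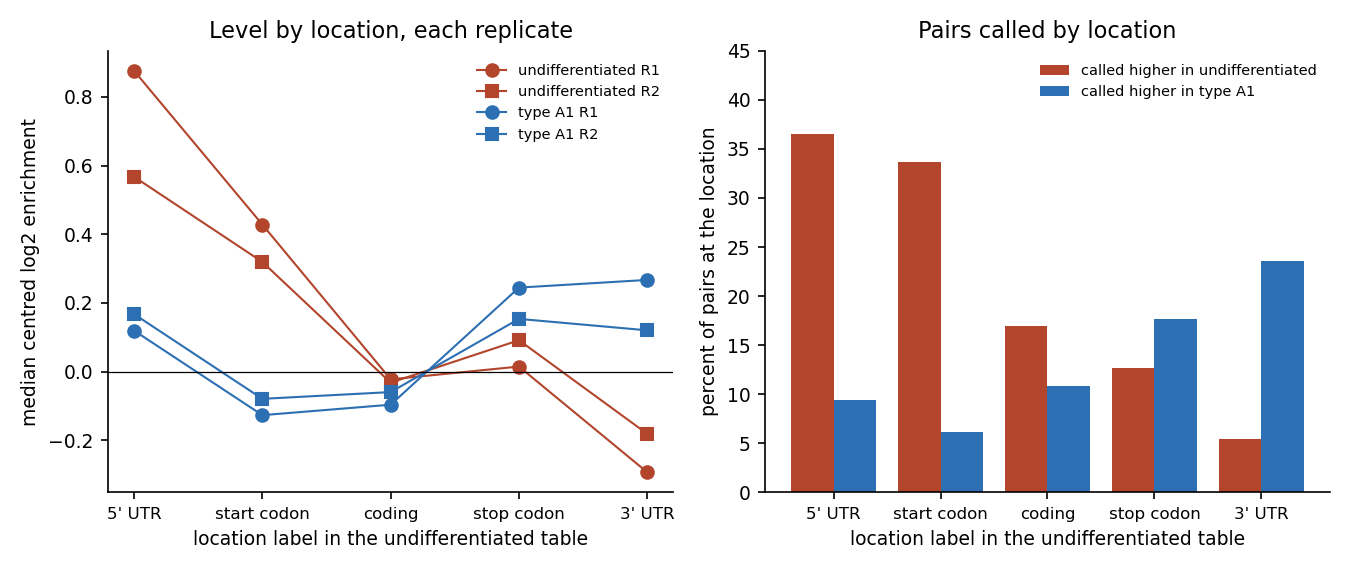
Left, the median centred log2 enrichment of the pairs at each location label, 1 line per replicate. Right, the percent of pairs at each location called higher in either stage, relative to the stage medians. The undifferentiated lines are highest at 5' UTRs and lowest at 3' UTRs, with a small rise from coding sequence to stop codons, the type A1 lines lie above them at stop codons and 3' UTRs, and the taller bar changes side between coding sequence and stop codons.

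The difference changed over the first 2000 nt or so of the transcript and was flat beyond that. Pairs starting within 100 nt of the first base had a median difference of 0.41, with 34.7% called higher in undifferentiated spermatogonia and 7.57% in type A1. The median was 0.25 for starts at 101 to 500 nt, 0.01 at 501 to 1000 nt, -0.13 at 1001 to 2000 nt and -0.19 at 2001 to 3000 nt. Within coding sequence alone it went from 0.31 in the first 100 nt to 0.13 at 101 to 500 nt, 0.06 at 501 to 1000 nt and -0.04 at 1001 to 2000 nt. The labelled region and the distance from the first base thus moved together, and a smaller gradient was left inside the coding sequence. Paired peaks overlap by definition, and 88.5% of pairs carried the same location label in both tables.

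**Figure D3:**
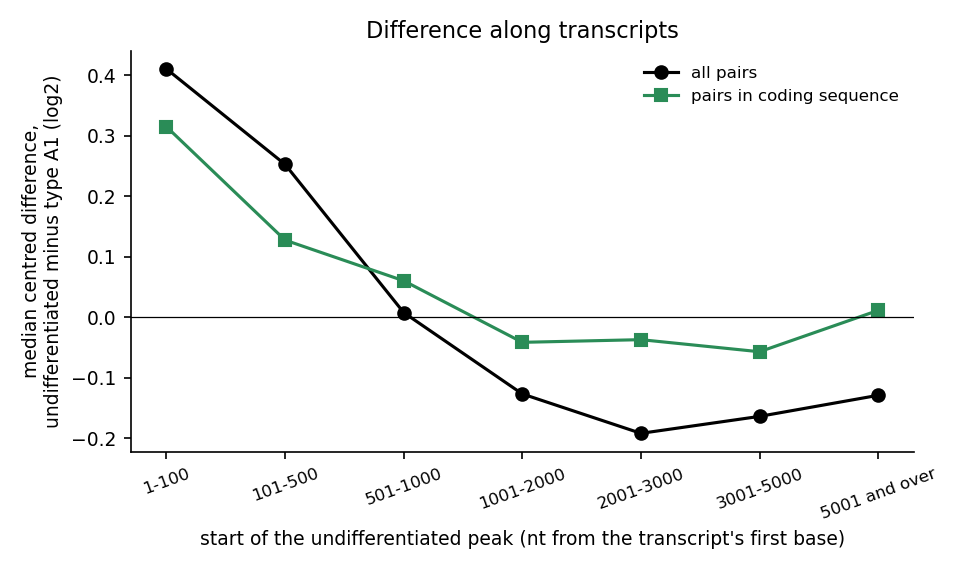
The median centred difference, undifferentiated minus type A1 on the log2 scale and relative to the stage medians, for pairs grouped by where the undifferentiated peak starts on its transcript. All pairs go from 0.41 in the first 100 nt to -0.19 at 2001 to 3000 nt, and pairs in coding sequence from 0.31 to -0.04.

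The same order was seen among sites of the same transcript. Of 3371 transcripts with pairs at several undifferentiated peaks, 2190 (65.0%) had the higher difference at the most 5' pair than at the most 3' pair, with a median gap of 0.37. Of 6356 genes with a pair, 1800 (28.3%) had at least 1 pair called higher in undifferentiated spermatogonia, 1494 (23.5%) at least 1 called higher in type A1, and 294 (4.63%) both. In 214 of the 294 (72.8%) the sites called higher in undifferentiated spermatogonia lay more 5', in 78 those called higher in type A1 did, and 2 had the same start. The median distance between the 2 kinds of site was 845.5 nt.

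Cd164, which encodes a sialomucin of the cell surface, shows such a switch in its own coding sequence. Its peak at bases 37 to 192 of the transcript had log2 enrichments of 7.64 and 8.44 in the undifferentiated replicates and 3.12 and 3.68 in type A1. The next site, at 480 to 604, had 2.80 and 3.62 and then 3.61 and 3.71. The first was far lower in type A1 as deposited and the second was not, and the replicates of the stages did not overlap at either once centred. The centred differences were 3.14 ± 0.28 and -1.96 ± 0.24 (SE, n = 2 per stage), with limma adjusted p of 0.000295 and 0.00117. Each SE here and below is limma's, which borrows variance from all pairs. The 2 peaks of the second pair shared 30 nt.

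Man2a1, an alpha-mannosidase of the Golgi, was similar over a longer stretch. The pair at bases 286 to 430 in its coding sequence had 5.15 and 5.91 against 1.96 and 1.54, and the pair at 3685 to 3832 in the 3' UTR had 1.90 and 2.95 against 3.25 and 2.54, each as undifferentiated then type A1. The differences were 2.27 ± 0.26 and -1.98 ± 0.31 (limma adjusted p of 0.00079 and 0.00308). The 3' UTR site rose within type A1 while the coding site fell. Secisbp2l changed by 2.24 at bases 2967 to 3180 and by -1.84 at the stop codon, there over peaks that shared 27 nt. Psmd5, an assembly chaperone of the proteasome, changed by 2.22 at 170 to 334 and by -1.72 at 1243 to 1454, both in coding sequence. Mtmr3, a phosphatase of phosphoinositides, changed by 2.03 in coding sequence and -1.71 at the stop codon. Rmnd5a, a subunit of a ubiquitin ligase, changed by 1.93 in coding sequence and -1.73 in the 3' UTR. All of these differences passed limma's threshold, and in each of these genes the site higher in undifferentiated spermatogonia was the more 5'. Atrn, Ets2 and Hjurp, named by the same rule, had the same order, but in each the undifferentiated-higher pair overlapped by 15 nt or less.

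The 15 genes with the largest differences towards the undifferentiated stage included Hmgn1, Actr3, Ccna2 and several splicing factors. Hmgn1, a nucleosome-binding protein (chromosome 16, 96121588 to 96127725 in GRCm38), had a peak over its start codon, at bases 1 to 151 of the transcript. Its log2 enrichments were 9.43 and 9.58 in undifferentiated spermatogonia and 2.09 and 2.21 in type A1. Both undifferentiated replicates were thus among the highest values of their columns, and both type A1 replicates were close to the median of theirs. The centred difference was 5.85 ± 0.25 (SE, n = 2 per stage; limma adjusted p = 3.79e-05). Actr3, a core subunit of the Arp2/3 actin nucleator (chromosome 1, 125392905 to 125435727), had 8.81 and 9.69 against 1.78 and 2.07 at its 5' UTR. Its difference was 5.82 ± 0.26 (limma adjusted p = 3.79e-05).

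Ccna2, the cyclin of S phase and mitotic entry (chromosome 3, 36564865 to 36573038), had 7.82 and 7.86 in undifferentiated spermatogonia and 1.45 and 1.82 in type A1, at a peak over the start codon whose bounds were nearly the same in both tables. Pole4, a small subunit of DNA polymerase epsilon, had 8.04 and 8.28 against 1.92 and 1.91, also at the start codon. In both genes the type A1 values lay near the stage median and the replicates were close together. The differences were 4.70 ± 0.27 and 4.73 ± 0.24 (limma adjusted p of 0.000128 and 6.28e-05). Atad2, a bromodomain ATPase of chromatin, had a difference of 4.18 ± 0.32, and Tpm4, a tropomyosin, one of 3.96 ± 0.42. Pgrmc1, a heme-binding membrane protein, and Ddhd1, a phospholipase, had 3.96 ± 0.29 and 4.29 ± 0.25. Golm2, a Golgi membrane protein, and Mrfap1 had 4.19 ± 0.29 and 3.96 ± 0.25. Over the 15 leading genes the undifferentiated means ran from 6.58 to 9.50 and the type A1 means from 1.11 to 2.86, and the highest adjusted p was 0.000614. In all 15 pairs the replicates of the stages did not overlap, as in 34% of all pairs in this direction. The 15 were picked for their large differences, so this is largely a result of the choice. Start codons and 5' UTRs held 8 of these 15 pairs, coding sequence 6 and stop codons 1, where 14.0% of all pairs lay at start codons or 5' UTRs.

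Srsf6, Srsf10 and Srsf2, members of the SR family that bind exons and recruit the spliceosome, and Hnrnpa0 and Hnrnpu, of the hnRNP proteins that package nuclear RNA, were 5 of the 15. Srsf6 had 8.48 and 9.45 in undifferentiated spermatogonia and 1.94 and 3.28 in type A1 at a peak in its coding sequence. Its type A1 replicates lay further apart than those of most leading genes, and the difference was 4.85 ± 0.41 (limma adjusted p = 0.000285). Hnrnpa0 had 8.60 and 8.62 against 1.29 and 1.74 at bases 583 to 741, and 8.29 and 9.12 against 2.64 and 2.76 at 261 to 424. The first type A1 peak lay below the median of its stage and the second above it, and the differences were 5.59 ± 0.28 and 4.50 ± 0.24. Hnrnpu had 7.83 and 8.99 against 2.84 and 2.87, a difference of 4.04 ± 0.28 with more enrichment left in type A1 than at the other leading sites.

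Because these leaders were seen first, the SR and hnRNP families were described as a whole afterwards, by counts only. Of 12 pairs on the 9 SR genes with a pair, 7 were called higher in undifferentiated spermatogonia and 1 in type A1, with a median difference of 2.01. Srsf1, the founding SR protein, had differences of 2.30 ± 0.40 and 3.30 ± 0.38 at adjoining undifferentiated peaks set against the same type A1 peak. Srsf9 had 2.58 ± 0.26 and Srsf4 1.71 ± 0.29. At Srsf11 the direction turned, with 3.74 and 4.45 against 3.72 and 3.19 at the stop codon and a difference of -0.87 ± 0.27 (limma adjusted p = 0.0382). Of 26 pairs on 16 hnRNP genes, 17 were called higher in undifferentiated spermatogonia and 1 in type A1, with a median of 1.22. They included Hnrnpul2 at 2.52 ± 0.23, Hnrnpm at 2.39 ± 0.32, Hnrnpll at 2.23 ± 0.23 and Hnrnpr at 1.76 ± 0.26. The exception was Hnrnpdl, at -0.73 ± 0.24 (limma adjusted p = 0.0472). With a mean enrichment of at least 1.5 in both stages, 7 SR pairs were left, with 3 and 1 calls and a median of 0.69, and 16 hnRNP pairs, with 12 and 0 calls and a median of 1.51. With the spread of the columns equalised the calls were 7 and 1 for SR genes and 16 and 0 for hnRNP genes. All of these counts stand against 17.1% and 13.1% of all pairs, with 30.2% called in either direction.

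**Figure D4:**
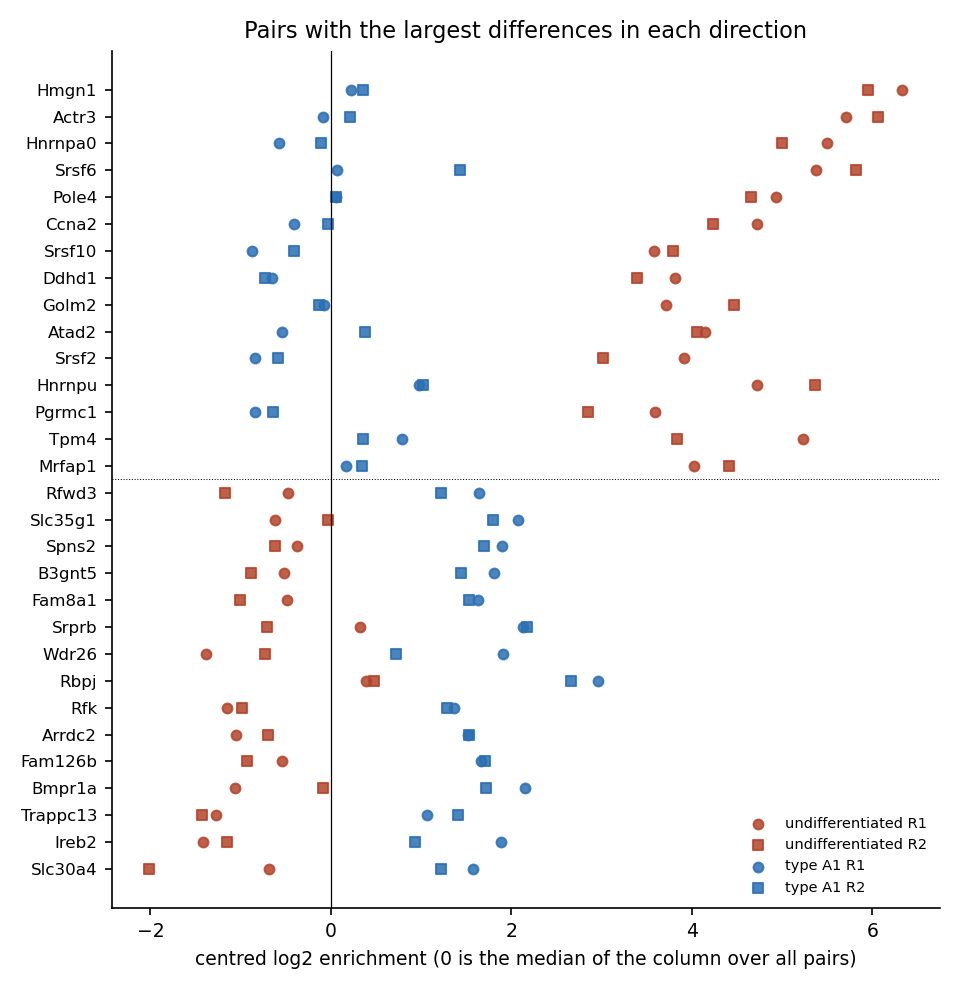
Centred log2 enrichment of each replicate, relative to the median of its column, for the 15 genes with the largest differences (above the dotted line) and the 15 with the smallest, 1 pair per gene. In every row both undifferentiated replicates lie on the same side of both type A1 replicates, and in the upper rows the type A1 values lie closer to 0 than the undifferentiated ones.

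Towards type A1 the differences were smaller, and the leading genes included Slc30a4, Ireb2, Bmpr1a and Rbpj. In all 15 leading pairs the deposited type A1 mean was above the undifferentiated mean, whereas 98.2% of all pairs had it below. That follows from the choice of the most negative centred differences, since centring shifted every pair by the same amount. Slc30a4, a zinc transporter (chromosome 2, 122681233 to 122702663), had 2.42 and 1.61 in undifferentiated spermatogonia and 3.44 and 3.07 in type A1 at its stop codon. Its undifferentiated values were among the lower ones of that stage and its type A1 values well above the median. The difference was -2.75 ± 0.40 (SE; limma adjusted p = 0.00229). Ireb2, the iron regulatory protein that binds iron-responsive elements of mRNAs, had 1.69 and 2.47 against 3.74 and 2.79 in its coding sequence. The stages did not overlap, and the difference was -2.69 ± 0.33 (limma adjusted p = 0.00111).

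Rfk, riboflavin kinase, had 1.95 and 2.64 against 3.22 and 3.13 in its 3' UTR, and Arrdc2, an alpha-arrestin, 2.05 and 2.93 against 3.38 and 3.38, also in the 3' UTR. Spns2, the transporter that exports sphingosine-1-phosphate, had 2.73 and 3.01 against 3.76 and 3.54 in its 3' UTR. In these 3 genes both type A1 replicates lay above both undifferentiated replicates as deposited. The differences were -2.39 ± 0.23, -2.40 ± 0.25 and -2.29 ± 0.24. Trappc13, of the TRAPP tethering complex, and Fam8a1 were the 2 genes of this group with the site near the 5' end, at -2.58 ± 0.25 in the 5' UTR and -2.33 ± 0.26 over the start codon. Wdr26, a subunit of a ubiquitin ligase, had -2.37 ± 0.40, B3gnt5, an enzyme of glycosphingolipid synthesis, -2.33 ± 0.26, Fam126b -2.42 ± 0.25 and Slc35g1 -2.26 ± 0.28. Bmpr1a, the type I receptor of bone morphogenetic proteins, had -2.51 ± 0.35, and Rbpj, the DNA-binding effector of Notch, -2.38 ± 0.24. Srprb, of the signal recognition particle receptor, had -2.34 ± 0.34 and Rfwd3, a ubiquitin ligase of DNA repair, -2.25 ± 0.30. The paired peaks of Bmpr1a, Rbpj, Srprb and Rfwd3 shared only 21, 4, 13 and 14 nt, so their values were read over largely different bases. Stop codons and 3' UTRs held 7 of the 15 pairs, against 28.2% of all pairs, and the highest adjusted p was 0.00409. The replicates did not overlap in any of the 15, as in 35.5% of all pairs in this direction, which again is largely a result of the choice.

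On the genes of the m6A machinery, described here by counts with no test of the list, differences were mostly towards undifferentiated spermatogonia. Of 28 genes listed as writers, erasers and readers, 22 had a pair, and 21 of their 56 pairs (37.5%) were called higher in undifferentiated spermatogonia against 17.1% of all pairs. Another 4 pairs, on 2 genes, were called higher in type A1 (7.14% against 13.1%). Stop codons and 3' UTRs held 12.5% of the 56 pairs, against 28.2% of all pairs, and the part of location was not tested. The median difference was 0.47, against -0.04 over all pairs, and 0.24 once the columns were scaled to the same spread, with 20 and 5 calls. The median difference was 0.42 without replicate 1 of type A1 and 0.43 without replicate 2, with fewer pairs called, as over all pairs.

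Alkbh5, the demethylase that removes m6A in the nucleus and is needed for male fertility in mice (chromosome 11, 60537683 to 60558512), was called at all 5 of its pairs. Over its start codon it had 7.06 and 8.52 in undifferentiated spermatogonia, and the 2 type A1 peaks overlapping that site had 2.47 and 2.65 for the first and a mean of 3.05 for the second. At bases 1178 to 1382, in coding sequence, it had 7.07 and 7.59 against 2.36 and 2.63. Every undifferentiated value exceeded every type A1 value at these sites by several log2 units, and the centred differences were 3.72 ± 0.33 and 3.23 ± 0.32 over the start codon and 3.33 ± 0.24 further on. The site nearest its stop codon, at 1668 to 1899, differed least, by 0.83 ± 0.23 (limma adjusted p = 0.0289).

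Among the writers, Mettl14 had 4.70 and 5.24 against 1.07 and 1.21 over its start codon, a difference of 2.32 ± 0.23 (limma adjusted p = 0.000498). Mettl3, the catalytic subunit, had peaks only in the undifferentiated table, with a strongest mean of 2.36. Wtap, the subunit that places the complex in nuclear speckles, went the other way at its only pair, with 3.27 and 4.29 against 3.62 and 3.37 and -1.22 ± 0.27 (limma adjusted p = 0.0113). Its deposited values were close in the 2 stages, so the difference reflects its place among other pairs. Among the readers, Ythdf3 had 6.26 and 5.87 against 1.63 and 1.97 in its 5' UTR and a difference of 2.75 ± 0.33. Its paralog Ythdf2 was not called at either pair, with differences of 0.29 ± 0.23 and -0.66 ± 0.25. Igf2bp1, a reader that stabilises its targets, had 2.62 ± 0.23 at its stop codon, over peaks sharing only 2 nt. Prrc2a, a reader with 11 pairs, had 3 called higher in type A1, led by -1.38 ± 0.30. Hnrnpa2b1 and Zcchc4 also had peaks only in the undifferentiated table, and Ythdc2, a reader required for meiosis, only in the type A1 table, at a mean of 1.44. That lies below the lowest mean listed for undifferentiated spermatogonia, 1.48.

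Genes that define undifferentiated spermatogonia did not move in a common direction. Of 37 listed genes, 29 had a peak in the undifferentiated table and 18 in the type A1 table, all 18 of them in both. On these 18, 9 of 41 pairs were called higher in undifferentiated spermatogonia and 8 in type A1, with a median difference of -0.26, beside 17.1% and 13.1% of all pairs. With the spread of the columns equalised the counts were 7 and 9. Ret, the receptor of GDNF, had 4.18 and 4.51 against 1.73 and 2.17 in its coding sequence and a difference of 0.89 ± 0.26 (limma adjusted p = 0.0334). Zbtb16, the transcription factor PLZF, was called at its start codon, with 0.97 ± 0.30, and at none of its other 3 pairs. Gfra1, the co-receptor of Ret, had 3.46 and 3.85 against 2.26 and 2.12 at the nearer of its 2 shared sites in the 3' UTR, and its differences of -0.04 ± 0.23 and -0.60 ± 0.24 did not pass. Its strongest undifferentiated peak, at 6.06, had no overlapping type A1 peak.

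Larger differences on this list were at Sdc4, a heparan sulfate proteoglycan, with 2.29 ± 0.31 over its start codon, at Itgb1, an integrin of the niche, with 1.62 ± 0.24 in its 5' UTR, and at the zinc finger factors Bcl6b and Glis3, with 1.54 ± 0.32 and 1.44 ± 0.24. In the other direction stood Foxo1, a transcription factor of stem cell maintenance, with 2.57 and 2.97 against 3.02 and 2.89 in its 3' UTR and -1.69 ± 0.23. Etv5, a target of GDNF signalling, had 2.65 and 3.49 against 2.86 and 2.38, also in the 3' UTR, and -1.06 ± 0.27. Sall4 had -1.15 ± 0.24 at a site in coding sequence and Itga6 -1.30 ± 0.26, the latter over peaks that shared 1 nt. Sall4 and Glis3 were called both ways, each with 1 other pair called in the direction opposite to the value given. Id4 and Lhx1, at 2.67 and 4.96, were among the 11 members with peaks in the undifferentiated table only.

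On genes of differentiation the shares of called pairs lay near or below those of all pairs, 17.1% and 13.1%. Of 42 pairs on 17 genes of differentiation and retinoic acid response, 7 (16.7%) were higher in undifferentiated spermatogonia and 4 (9.52%) in type A1, with a median of -0.10. Kit had 4.71 and 4.30 against 2.61 and 2.39 over its start codon and 2.97 and 4.41 against 3.20 and 3.06 in its 3' UTR. Its difference went from 0.50 ± 0.33 at the first to -0.07 ± 0.25 in coding sequence and -0.94 ± 0.32 at the last, and none passed (limma adjusted p of 0.269, 0.845 and 0.0544). Stra8, the retinoic acid target needed for meiosis, had 2.24 and 3.25 against 1.83 and 1.66 and -0.50 ± 0.26. Sohlh2, Rarg and both pairs of Ccnd2 were not called either, with differences from -0.38 to 0.62. Sohlh1 had no peak in either table.

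Dmrt1, a factor that holds back meiosis in spermatogonia and is also made in Sertoli cells, was the clearest exception. Over its start codon it had 7.23 and 8.08 in undifferentiated spermatogonia and 3.01 and 2.96 in type A1. A second site at 429 to 593 had 6.36 and 6.66 against 2.62 and 2.70. All undifferentiated values were more than 3 log2 units above the type A1 values, and the differences were 3.16 ± 0.24 and 2.35 ± 0.24 (limma adjusted p of 0.000228 and 0.000498). A last pair, sharing 2 nt, was not called, at 0.18 ± 0.23. Rara, the retinoic acid receptor alpha, also active in Sertoli cells, had 1.62 ± 0.24 in its 3' UTR, and Scml2, a germline chromatin protein, 1.77 ± 0.26. Higher in type A1 were Rxrb at -1.26 ± 0.28, Tcf3 at -1.05 ± 0.26 and Elavl2 at -0.94 ± 0.25. For the genes also made in Sertoli cells, the marker counts of 7 of 8 against 1 of 8 stand beside these values, and the part of Sertoli cells was not tested.

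Signalling genes had called pairs in both directions, relative to the stage medians. Of 65 pairs on WNT and Notch genes, 14 (21.5%) were called higher in type A1 and 5 (7.69%) in undifferentiated spermatogonia, beside 13.1% and 17.1% of all pairs. Stop codons and 3' UTRs held 21.5% of the 65, against 28.2% of all pairs. The median difference was -0.33, and -0.20 with columns scaled to the same spread. The median difference was -0.30 without replicate 1 of type A1 and -0.36 without replicate 2, with fewer pairs called, as over all pairs. As deposited, without centring, the counts were 1 and 47. Rbpj, described above, Lgr4, a receptor of R-spondins, at -1.87 ± 0.24, Notch1 at -1.37 ± 0.30 and Lrp6, a co-receptor of WNT, at -1.33 ± 0.26 led them. Gsk3b, the kinase that marks beta-catenin for destruction, was far on the other side, with 8.16 and 8.28 against 3.97 and 3.90 in its 5' UTR and 2.78 ± 0.25 (limma adjusted p = 0.000319). Notch2, Apc and Dvl2 were also higher in undifferentiated spermatogonia, at 1.40 ± 0.24, 1.24 ± 0.25 and 1.22 ± 0.28.

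On the KIT, BMP and TGF-beta list, 8 (22.9%) and 4 (11.4%) of 35 pairs were called higher in type A1 and in undifferentiated spermatogonia, beside 13.1% and 17.1% of all pairs. Stop codons and 3' UTRs held 54.3% of these 35 pairs, against 28.2% of all pairs. The median difference was -0.30, with -0.26 without replicate 1 of type A1 and -0.48 without replicate 2, where fewer pairs were called, as over all pairs. The BMP signal transducer Smad1 had 2.10 and 2.74 against 2.60 and 2.46 at its stop codon and -1.62 ± 0.23, and the ubiquitin ligase Smurf2 had -1.61 ± 0.27. Bmpr2, the type II receptor of BMPs, was called in both directions within its coding sequence, at -2.01 ± 0.35 for bases 2441 to 2540 and 0.88 ± 0.23 for bases 3310 to 3477. Here the site higher in undifferentiated spermatogonia was the more 3'. Smad7, the inhibitory SMAD, had 1.26 ± 0.31 in its 5' UTR, Smad5 0.91 ± 0.28 and Smurf1 1.02 ± 0.32. Of 65 pairs on GDNF and FGF signalling genes, 14 (21.5%) and 9 (13.8%) were called in the same order, beside the same shares of all pairs. With the replicate block they were 13 and 12, where 1859 and 2424 of all 14053 pairs were called. The median difference was -0.09, with -0.06 without replicate 1 of type A1 and -0.20 without replicate 2. Both of these fits called fewer pairs, as over all pairs. Stop codons and 3' UTRs held 44.6% of these 65 pairs, and the part of location in the signalling lists was not tested. The kinases Yes1 and Src, of the SRC family, had -1.81 ± 0.24 and -1.70 ± 0.28 at the stop codon and in the 3' UTR. Map2k1, a MAP kinase kinase, had 5.94 and 5.06 against 1.59 and 1.52 in its 5' UTR and 2.44 ± 0.41, and Pik3r1 had 1.32 ± 0.38. Tsc1, an inhibitor of mTORC1, was called in both directions, at -1.29 ± 0.26 in coding sequence and 1.18 ± 0.26 at the stop codon. Its paired peaks at the stop codon shared only 26 nt.

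Genes of meiosis and of the piRNA pathway had peaks in both stages, and most of their pairs were not called. Of 71 pairs on 26 meiotic genes, 7 (9.86%) were called in each direction, beside 17.1% and 13.1% of all pairs. Sycp1, of the synaptonemal complex, had 5.75 and 5.77 against 1.25 and 2.72 over its start codon, where the type A1 replicates were far apart, and 2.27 ± 0.44. Smc1b, the meiotic cohesin, had 1.72 ± 0.30 over its start codon, and the recombination genes Brca1 and Brca2 1.72 ± 0.32 and 1.79 ± 0.33 in coding sequence. Higher in type A1 were Trip13 at -1.71 ± 0.26, Atm at -1.24 ± 0.24, Mdc1 at -1.27 ± 0.24 and Stag3 at -1.05 ± 0.23. Of 50 pairs on piRNA genes, 3 were higher in undifferentiated spermatogonia and 6 in type A1, and 5 and 5 with the spread of the columns equalised. Mael had 1.77 ± 0.34, and Mov10l1, the helicase that feeds piRNA precursors, -1.36 ± 0.28 in its 3' UTR, with Exd1 at -1.09 ± 0.27. Trim71, an RNA-binding ubiquitin ligase, was called at 2 sites in its coding sequence, at 0.81 ± 0.26 for the upstream and -1.21 ± 0.25 for the downstream one. Wdr77, the partner of Prmt5, was also called both ways, at 1.54 ± 0.24 and -0.83 ± 0.24, but with the same type A1 peak in both pairs. The peaks of its second pair shared only 12 nt. Ddx4, the germline helicase VASA, was not called at either pair, at 0.00095 ± 0.23 and 0.73 ± 0.25, the latter over peaks that shared 27 nt.

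Germline RNA-binding proteins had 11 (19.0%) and 7 (12.1%) of 58 pairs called higher in undifferentiated spermatogonia and in type A1, near the shares of all pairs. Dazl, a translational regulator needed for spermatogonia, had 4.62 and 6.83 in undifferentiated spermatogonia and 1.61 and 1.91 in type A1 in its 5' UTR. The undifferentiated replicates were more than 2 log2 units apart there, and the difference was 2.46 ± 0.47 (limma adjusted p = 0.0069). Ybx1, an abundant mRNA-packaging protein, had 7.76 and 8.41 against 3.41 and 3.25 in its 5' UTR and 3.25 ± 0.23, and Zfp36l2, which binds AU-rich elements, had 3.32 ± 0.30. Its paralog Zfp36l1 was on the other side at -1.11 ± 0.24, with Pum2 at -1.16 ± 0.24, Ddx6 at -1.30 ± 0.30 and Dnd1, a partner of Nanos2, at -1.46 ± 0.26. The paired peaks of Ddx6 shared only 22 nt. Ddx25 had 1.84 ± 0.30 over its start codon.

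Cell cycle genes had 10 (13.5%) and 5 (6.76%) of 74 pairs called, and chromatin genes 66 (21.6%) and 33 (10.8%) of 305, each as higher in undifferentiated spermatogonia and in type A1, beside 17.1% and 13.1% of all pairs. With the spread of the columns equalised the cell cycle counts were 16 and 10 and the chromatin counts 51 and 34. Beside Ccna2, Ccnd1 had 4.21 and 4.85 against 1.15 and 1.13 at its stop codon and 1.88 ± 0.23, and Mcm4, of the replicative helicase, had 1.43 ± 0.23. Wee1, the kinase that holds back Cdk1, was called both ways, at 2.63 ± 0.34 in coding sequence and -1.02 ± 0.33 at the stop codon. Cdk6 had -1.68 ± 0.27, Bub1b -1.38 ± 0.27 and Ccnd3 -0.95 ± 0.24. On the chromatin list, Smarca5, an ATPase of nucleosome sliding, had 7.29 and 8.44 against 3.13 and 3.36 and Dnmt3a, a de novo DNA methyltransferase, 6.89 and 7.26 against 2.55 and 2.70, at the 5' UTR and the start codon. Their differences were 3.12 ± 0.28 and 2.94 ± 0.24, and the Polycomb subunits Eed and Suz12 had 2.75 ± 0.25 and 2.29 ± 0.31 in their 5' UTRs. Chd6, Brdt, Kdm1a and Chd2 led in the other direction, from -2.10 ± 0.27 to -1.42 ± 0.25. The paired peaks of Chd6 shared only 16 nt. Of 75 ribosomal protein genes, 28 had no peak in either table and 14 had peaks in both. Another 29 had peaks in the undifferentiated table only and 4 in the type A1 table only. Among all genes listed in either table, 24.2% and 5.86% were in 1 table only, in the same order. Of their 14 pairs 2 (14.3%) were called higher in undifferentiated spermatogonia, beside 17.1% of all pairs, and none in type A1, beside 13.1%. The 2 were on Rpl4, at 1.01 ± 0.23, and Rpl7a, at 0.82 ± 0.24.

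**Figure D5:**
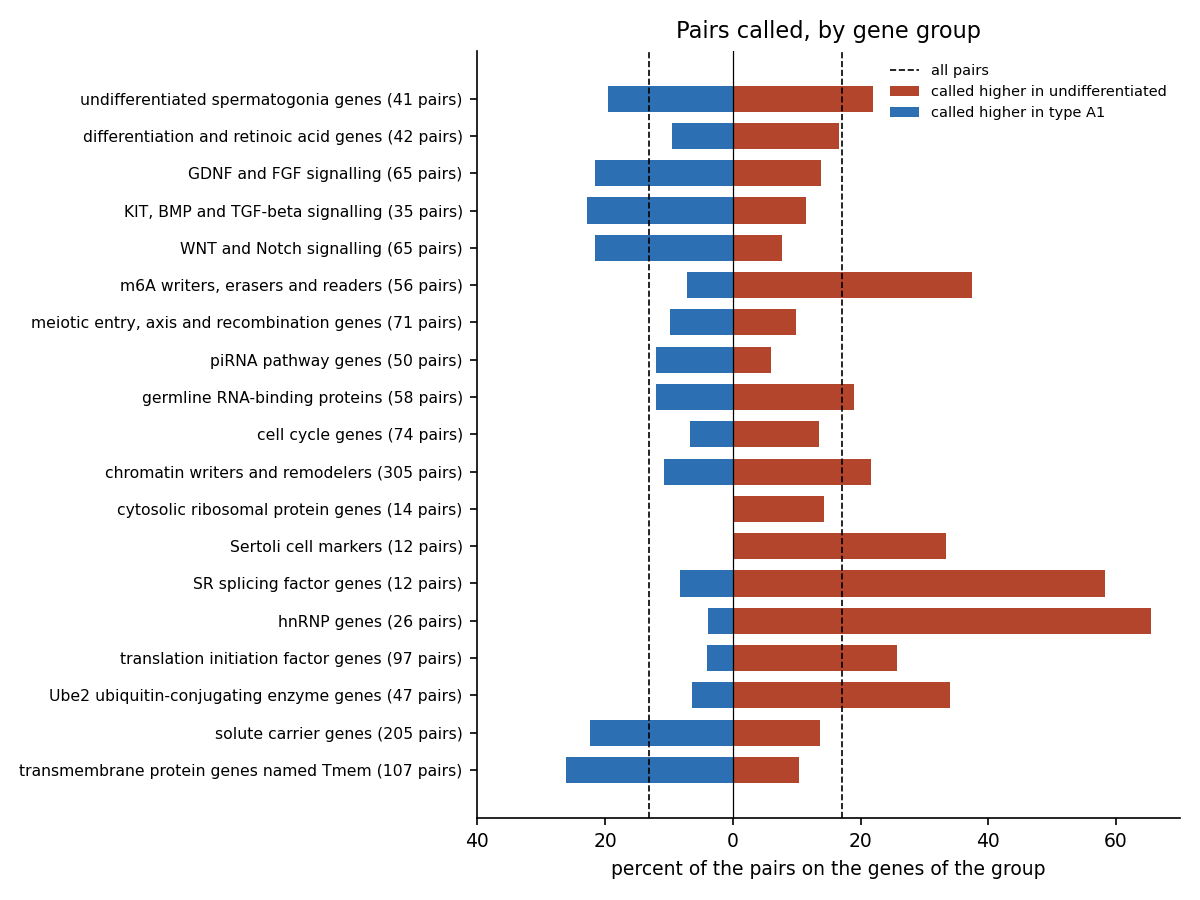
Percent of the pairs on each gene group called higher in undifferentiated spermatogonia (to the right of 0) and in type A1 (to the left), relative to the stage medians, with all pairs as dashed lines at 17.1% and 13.1%. The m6A genes, at 37.5%, and the SR and hnRNP genes reach furthest to the right, and the last 6 groups were chosen after their leading members were seen.

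Preleptotene spermatocytes, the stage after the spermatogonia, gave another reading at the same bases. A preleptotene peak overlapped the shared bases of 11673 pairs (83.1%), and each stage was centred on its median over these. In 5' UTRs the undifferentiated median was 0.81, the type A1 median 0.20 and the preleptotene median 0.75, and over start codons they were 0.36, -0.11 and 0.16. In 3' UTRs they were -0.24, 0.21 and -0.13. At these locations the preleptotene median lay between the other stages. Its replicates stood at 0.76 and 0.60 in 5' UTRs, at 0.22 and 0.09 over start codons and at -0.17 and -0.05 in 3' UTRs. Over start codons replicate 1 was nearer to the undifferentiated median and replicate 2 nearer to that of type A1. At stop codons the medians were 0.05, 0.20 and 0.02, and the preleptotene one lay outside the other stages. At the 2195 pairs called higher in undifferentiated spermatogonia the medians were 1.33, -0.0034 and 0.78, and at the 1407 called higher in type A1 -0.78, 0.44 and -0.23. These pairs were chosen for their difference between the first 2 of the values, so a middle value in another stage is in part a result of the choice. A preleptotene peak was present at 91.5% of the pairs called higher in undifferentiated spermatogonia and at 76.2% of those called higher in type A1.

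Genes with peaks in 1 table only differed in number and in the place of their peaks. The undifferentiated table alone listed 2337 genes (24.2% of genes in either table) with 3845 peaks, and the type A1 table alone 566 (5.86%) with 703. Most had 1 peak, 1437 and 461 genes. Of the peaks of the first kind, 14.9% lay over start codons, 8.79% over stop codons and 9.99% in 3' UTRs. Of the second kind the shares were 11.4%, 20.1% and 27.6%. Each stage has 1 list, so these counts carry no replicate error.

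Absence from the type A1 table did not mean absence of signal. The deposited ratios give the type A1 enrichment at every undifferentiated peak, since enrichment minus ratio equalled the type A1 table's own value at the 67 pairs with identical bounds. At peaks of genes listed only in the undifferentiated table, this recovered type A1 enrichment had a median of 0.71, against 1.49 at the other undifferentiated peaks. For 1417 of the 2337 genes (60.6%) it reached the lowest mean listed in the type A1 table, 0.71, and for 220 the median listed there, 1.76. The type A1 lists start at lower values than the undifferentiated ones, whose lowest mean was 1.48. In 144 of the 566 genes listed only in type A1, the strongest type A1 peak lay below that value.

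The highest of the genes listed only in undifferentiated spermatogonia was Pmaip1, the proapoptotic gene Noxa, with 7.19 and 7.57 over its start codon and recovered type A1 values of 1.32 and 1.92. Ggnbp2, a zinc finger protein needed for spermatogenesis in mice, had 6.64 and 6.45, and 2.38 and 2.09 in type A1. Marcks, a substrate of protein kinase C that binds actin, had 6.21 and 6.47, and 2.19 and 2.05 in type A1. All 3 had type A1 signal above the median listed peak in at least 1 replicate. Chmp1b, of the ESCRT-III complex, Ptpn9, a phosphatase, Cald1, which binds actin and myosin, and Ccdc85b followed, with means of 6.27, 6.00, 6.00 and 5.95. The paralogs Eif3j1 and Eif3j2 had nearly the same values, 6.25 and 6.22, and reads may be shared between them. Plpp3, a lipid phosphate phosphatase, had the lowest recovered type A1 mean of the leading 10, with 6.21 and 5.65 against 0.36 and 0.57. Markers of supporting cells were in this group: Sox9 of Sertoli cells had 4.95 and 5.65, and 1.39 and 1.31 in type A1, and Pdgfra of Leydig and peritubular cells 5.80 and 6.00, and 1.73 and 1.29. Of the 26 Sertoli markers 22 were listed in undifferentiated spermatogonia and 5 in type A1, of 32 markers of Leydig, peritubular and endothelial cells 20 and 2, and of 18 blood markers 9 and 0. Their part in the 2337 genes was not tested.

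Among the genes listed only in type A1, Faxc had 4.10 and 3.67 at its stop codon. Med12l, a paralog of a Mediator subunit, had 3.72 and 3.21 in its 3' UTR, and Nova1, a neuronal splicing regulator, 3.32 and 3.39 in its coding sequence. These values are high for type A1, whose median listed peak is at 1.76, but moderate for the undifferentiated table. Gcnt1, an enzyme of O-glycan branching, Lonrf2, Adcy1, an adenylyl cyclase, and Camk2a, a calmodulin-dependent kinase, followed with means from 3.22 down to 3.10. Stradb and Wnt7b, also among the leading 10, had lower means. Of the 566 genes, 192 had a preleptotene peak at the site, from which the undifferentiated value could be recovered in the same way. In 157 of these it reached 1.48, the lowest mean listed for undifferentiated spermatogonia, and its median was 1.93.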

How the data were processed

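Poly(A) RNA was fragmented, immunoprecipitated with an anti-m6A antibody and sequenced beside its input, per the labels' protocols. The aligner was TopHat2 2.0.14 and the genome build mm10, per the submitters' processing notes. Peak calling, thresholds and scaling: not given in the sources used here. Deposited by the authors were 1 peak table per stage, with transcript positions, a location label and, per the file headers, log2 enrichment and log2 ratio values for each replicate, and a table with a count of raw and mapped reads per library. Read counts per peak were not used here. Precision comes from the 2 replicates, moderated by limma with a variance shared over all pairs. That prior carried 6.621 degrees of freedom against 2 residual ones, so the SEs are not those of the 2 replicates alone.

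Pairs were fitted with limma 3.58.1 (R 4.3.3, lmFit and eBayes), 2 values against 2, two-sided, after centring each column on its median, with Benjamini-Hochberg adjustment over 14053 pairs and a threshold of 0.05. The script was tested on simulated data. Symbols were updated with a RefSeq table of GRCm38.p6, which matched all but 9 of 23031 and 4 of 16392 peaks. Gene positions are from that table, and peak positions are on the transcript. No block was used, since the sources used here state none. Deviations of same-numbered replicates had r = -0.157 over pairs.

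The pairs, lists and tests were chosen with earlier results of these data known. The named genes are the 15 largest and 15 smallest called differences, up to 4 called members per direction and list and up to 4 members in 1 table only, the 10 leading genes of each table alone, 10 genes called both ways and 20 fixed genes. Provisional symbols (Gm with a number, Rik clones, any with a hyphen) were not named, and some genes that the rule selects are not reported here. The SR and hnRNP genes beyond these and the last 6 families were named after their values were seen. Alternatives covered centring, scaling, overlap, prior variance, blocks, low values and left-out replicates.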

Additional observations from a re-analysis of the deposited data

How the results depend on the processing

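The calls depended most on centring and on single libraries. Without centring, 11399 pairs were called higher in undifferentiated spermatogonia and 10 in type A1, from 2399 and 1847. Leaving out 1 replicate at a time gave 888 to 3502 and 294 to 3282 calls, where the stage left with a lone replicate is assumed to vary like the other. The lowest counts came without type A1 replicate 1, then without type A1 replicate 2 (1247 and 695), and the highest without undifferentiated replicate 2, then without undifferentiated replicate 1 (3112 and 2862). Type A1 values recovered from the deposited ratios at 22843 undifferentiated peaks, leaving out 188 at 0, gave 3634 and 2107. Scaling to the same spread gave 2189 and 2140 calls, which kept 80.0% and 84.6% of the original ones, and quantile normalization 2205 and 2218, which kept 78.6% and 83.9%. Pairs matched once gave 1931 and 1443, an overlap of at least 50% gave 2074 and 1576, a trended prior variance 2360 and 2018, and an enrichment of at least 1.5 in both stages left 1776 and 1656. No pair held an exact 0. Across the settings of scaling, prior variance, block and left-out replicate, 802 and 260 pairs were called in every one. The gap between start codons and 3' UTRs stayed between 0.66 and 0.88.

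With the replicate block the counts were 2424 and 1859, and 2277 and 1688 of the original calls were kept. The crossed pairing of replicates, added after seeing the data, gave 2913 and 2526 calls. Peaks at or above 1.5 left 3652 genes in the undifferentiated table only and 414 in the type A1 table only, the best 16392 peaks of both tables left 1639 and 1148, and counting by accession 2338 and 566.

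Of 166 named pairs, 155 kept their side of the threshold and their direction under quantile normalization and 156 under equal spread, against 117 without type A1 replicate 1. Without centring 29 pairs called higher in type A1 turned, none of them past the threshold: Mdc1 0.24, Trim71 0.29, Chd2 0.089, Ccnd3 0.55, Ddx6 0.20, Pum2 0.35, Tcf3 0.46, Elavl2 0.57, Rxrb 0.25, Tsc1 0.22, Atm 0.27, Zfp36l1 0.39, Itga6 0.21, Lrp6 0.18, Notch1 0.13, Wee1 0.48, Bub1b 0.13, Fn1 0.65, Tbpl1 0.46, Stag3 0.46, Prrc2a 0.13, Etv5 0.45, Wdr77 0.68, Mov10l1 0.15, Catsper2 0.48, Exd1 0.42, Dnd1 0.045, Sall4 0.36 and Wtap 0.29. Centring subtracts the same amount from every difference by construction.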

Other observations

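Families of enzymes and membrane proteins, chosen after their leading members were seen and described by counts only, split by direction. Of 47 pairs on genes of ubiquitin-conjugating enzymes (Ube2), which pass ubiquitin to ligases, 16 (34.0%) were called higher in undifferentiated spermatogonia and 3 (6.38%) in type A1, with a median difference of 0.05. Of 97 pairs on translation initiation factor genes, 25 (25.8%) and 4 (4.12%) were called, with a median of 0.22. Solute carrier genes, which encode membrane transporters, had 28 (13.7%) and 46 (22.4%) of 205 pairs called, and transmembrane protein genes named Tmem 11 (10.3%) and 28 (26.2%) of 107, with medians of -0.14 and -0.32. All of these stand beside 17.1% and 13.1% of all pairs, relative to the stage medians. They include the leading members that were seen first. Stop codons and 3' UTRs held 43.4% of the solute carrier pairs and 54.2% of the Tmem pairs, against 28.2% of all pairs, but also 53.2% of the Ube2 pairs.

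Of only 8 pairs on spermatid genes none was called higher in undifferentiated spermatogonia and 2 in type A1, beside 17.1% and 13.1% of all pairs. The 2 were on Tbpl1, a paralog of the TATA-binding protein, at -1.04 and Catsper2, a sperm calcium channel subunit, at -1.02. Both genes had deposited values that were close in the 2 stages. Among markers of supporting cells with a pair, Tjp1 and Ctsl were called higher in undifferentiated spermatogonia, at 1.56 and 1.28, and Fn1 higher in type A1, at -0.86 over peaks that shared 1 nt.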
